A study of Mus musculus with 9 samples.

Results

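The gene module for cholesterol and fatty acid synthesis was followed in mouse CD4+ T cells that were either freshly isolated or made into induced regulatory T cells (iTreg). It was defined by gene symbol, and its 33 members were all found among the 14912 genes of the deposited table, 32 by their own symbol and Msmo1 through its older symbol Sc4mol, a RefSeq synonym. The sterol branch held 24 members, of which 7 act in the mevalonate steps, 11 turn farnesyl units into cholesterol and 6 sense, regulate or carry sterols. The fatty acid branch held 9 members. Testing was limited to genes that reached a normalized count of 5 in 3 or more libraries, which 32 members did. Fads2, a fatty acid desaturase, did not pass, with 5 reads over the day 0 libraries, 1 over the TGFβ-iTreg libraries and 16 over the mTO-iTreg libraries.

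All cells came from the reporter strain B6.Cg-Foxp3tm2(EGFP)Tch/J, hemizygous for the allele Foxp3tm2Tch, in which eGFP marks cells that express Foxp3, the transcription factor of regulatory T cells. There were 3 groups of 3 libraries. Day 0 CD4+ T cells were eGFP-negative and had received no treatment. TGFβ-iTreg cells were eGFP-positive and were isolated on day 5, after culture with TGFβ at 10 ng/ml, IL-2 at 300.0 U/ml and anti-CD3 plus anti-CD28 antibodies (1 µg/ml each). The mTO-iTreg cells were also eGFP-positive and isolated on day 5, from a co-culture with organoids grown from murine colorectal cancer (CRC) tumours, with IL-2 at 20 U/ml and the same antibody doses, and with no added TGFβ listed. Both iTreg groups therefore differ from day 0 in activation, culture and the eGFP gate together, and they differ from each other in TGFβ, IL-2 dose and the presence of organoids, so the part of each cannot be told apart. Library codes in the labels have one form for day 0 and TGFβ-iTreg and another for mTO-iTreg, and what the codes stand for is not given. Day 0 and TGFβ-iTreg libraries with the same replicate number have adjacent codes. The labels give neither the age of the mice nor whether the libraries of a group came from separate animals or cultures, and the p-values then measure only the spread between these libraries.

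Cholesterol is built from acetyl-CoA through mevalonate, isoprenoid units, squalene and lanosterol. Its enzymes are classic targets of the transcription factor SREBP2 (encoded by Srebf2), which the escort protein SCAP carries from the endoplasmic reticulum to the Golgi when membrane sterol is low, while INSIG proteins hold the complex back when sterol is high. SREBP1 (encoded by Srebf1) is better known for fatty acid genes, and T cells are known to raise both pathways when they are activated and grow. Fatty acid synthesis starts from cytosolic acetyl-CoA, which ATP citrate lyase makes from citrate and Acss2 from acetate, and ends with elongases and desaturases that set chain length and the number of double bonds.

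The 9 libraries held 2078223 to 9944952 reads, recovered from the steps in the normalized values, so that 1 read was worth 0.494 to 2.69 normalized counts. The least deep libraries were TGFβ-iTreg replicate 1 and day 0 replicate 2. All 8 genes of a CD4+ T cell marker list were present in the libraries, with summed normalized counts of 27458 to 29627 on day 0, 16480 to 18996 in TGFβ-iTreg and 15856 to 19115 in mTO-iTreg. Of 13 colon epithelial markers 6 were listed, and their sum was 13.7 to 18.8 on day 0, 137.7 to 138.8 in TGFβ-iTreg and 34.1 to 114.3 in mTO-iTreg. Epcam and Cdh1 made up most of that sum. The keratin gene Krt18 was at 0 in all TGFβ-iTreg libraries and at 0, 0 and 4.65 in mTO-iTreg replicates 1 to 3. Cldn4 was at 4.92, 0 and 11.86 in TGFβ-iTreg and at 0 in all mTO-iTreg libraries. Lgr5 was at 2.46, 0 and 0 in TGFβ-iTreg and at 0 in all mTO-iTreg libraries. Vil1 was at 2.46, 0 and 0 in TGFβ-iTreg and at 0, 2.48 and 0 in mTO-iTreg. Myeloid and antigen-presenting cell markers, 8 of 10 listed, summed to 731 to 5724 on day 0, 155 to 342 in TGFβ-iTreg and 423 to 660.2 in mTO-iTreg, and the highest value belonged to day 0 replicate 3. B cell markers summed to 10.5 to 57.0, 30.6 to 69.2 and 61.1 to 104.4 in the same order of groups. The part of these cells in the results was not tested, but the counts of members called against day 0 without replicate 3 of that group are given with the results. In bulk RNA, fewer cells of a type and less RNA per cell cannot be told apart.

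The stretch in front of a gene's start is where SREBP and its partner NF-Y, which binds CCAAT boxes, are known to act on this pathway, so the letters of these stretches are shown for members that moved in different ways. RefSeq promoter windows (GRCm38.p6) were matched for 27 members, 20 of the sterol branch and 7 of the fatty acid branch, and the 250 bases before each start were searched on both strands. The stretches of 5 sterol genes and of the fatty acid gene Acly are printed 5′ to 3′ up to the start, with any CCAAT box or its reverse complement ATTGG in capitals, and in Hmgcs1 the capitals TCACCCCAC mark a match to TCACNCCAC, the sterol regulatory element.
Hmgcs1: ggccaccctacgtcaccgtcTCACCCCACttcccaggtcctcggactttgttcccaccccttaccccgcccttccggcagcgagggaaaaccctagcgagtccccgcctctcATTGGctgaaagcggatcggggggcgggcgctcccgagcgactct
Mvd: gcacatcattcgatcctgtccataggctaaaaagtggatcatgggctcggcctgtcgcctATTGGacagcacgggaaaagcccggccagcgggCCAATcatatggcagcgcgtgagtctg
Sc5d: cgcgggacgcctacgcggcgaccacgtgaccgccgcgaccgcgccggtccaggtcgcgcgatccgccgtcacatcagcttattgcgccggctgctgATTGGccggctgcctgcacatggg
Nsdhl: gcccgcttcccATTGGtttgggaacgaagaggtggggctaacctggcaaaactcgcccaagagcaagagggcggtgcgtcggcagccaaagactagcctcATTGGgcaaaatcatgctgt
Ebp: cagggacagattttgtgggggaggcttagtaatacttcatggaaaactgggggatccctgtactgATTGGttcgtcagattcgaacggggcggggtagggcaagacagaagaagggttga
Acly: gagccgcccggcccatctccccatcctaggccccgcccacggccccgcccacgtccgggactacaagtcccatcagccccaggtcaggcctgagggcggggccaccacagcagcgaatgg
Hmgcs1 (chr13:119690194-119690350, plus strand), Mvd (chr8:122443423-122443542, minus strand) and Sc5d (chr9:42264301-42264420, minus strand) are members that rose in both iTreg groups against day 0. Nsdhl (chrX:72918401-72918520, plus strand) rose in mTO-iTreg and was not called in TGFβ-iTreg, and Ebp (chrX:8193513-8193632, minus strand) rose in TGFβ-iTreg and was lower in mTO-iTreg than in TGFβ-iTreg. Acly (chr11:100528001-100528120, minus strand), which fell in mTO-iTreg, is shown as a member with no CCAAT or ATTGG in its window. The printed genes do not stand for all members. In the last 120 bases, members not called in any comparison also held boxes: Mvk 4, Fasn 3, Hsd17b7 2, Insig2 2 in 1 window and Lss 1. Scap and Acaca, also not called, had 0. Of the other members that rose in both iTreg groups, Cyp51 had 1 and Msmo1 2, while Pmvk, Insig1 and Acat2 had 0. The other called fatty acid members did not follow Acly. Acss2, which also fell in mTO-iTreg, had 1, and Elovl5, lower in mTO-iTreg than in TGFβ-iTreg, had 2. Elovl6, which rose in mTO-iTreg, had 0, and Scd2 had no matched window. Whether the box goes with the rise was not tested.

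A CCAAT box in either orientation (ATTGG or CCAAT) was found in 18 of the 20 sterol members (90.0%) and in 3 of the 7 fatty acid members (42.9%), against 37.5% of the 27025 genes in the RefSeq windows. The GC box GGGCGG, the core of Sp1 sites, was found in 19 of 20 sterol members (95%), 3 of 7 fatty acid members (42.9%) and 35.4% of all genes. The E-box CACGTG was found in 5 of 20 (25%), 1 of 7 (14.3%) and 6.86%. The letters TCACNCCAC were found in 1 of 20 sterol members, Hmgcs1, in 0 of 7 fatty acid members and in 1.22% of all genes. Base composition differed as well. Over the first window listed for each gene, median GC content was 62.2% for sterol members, 64.0% for fatty acid members and 52.0% for all genes. The motif shares instead count a gene if any of its windows matched. These are matches of letters, not sites, and none of the 4 motifs contains another.

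Of the 18 enzymes of cholesterol synthesis, 12 rose in TGFβ-iTreg and 12 in mTO-iTreg against day 0, and 0 fell. With the regulators and carriers, 13 of the 24 sterol members rose in TGFβ-iTreg and 14 in mTO-iTreg, and 0 fell in either, by limma on log2(normalized count + 1) with Benjamini-Hochberg adjustment over 10983 genes and a threshold of 0.05. Over all tested genes 18.6% were called in TGFβ-iTreg (9.78% higher, 8.80% lower) and 33.9% in mTO-iTreg (19.4% higher, 14.5% lower). The libraries of 16 sterol members in TGFβ-iTreg and 15 in mTO-iTreg all lay above those of day 0, as did 18% and 25.8% of all tested genes, and 0 and 1 lay wholly below, against 17.8% and 20.3%. The median log2 change of the sterol members was 0.90 in TGFβ-iTreg and 1.11 in mTO-iTreg, beside -0.015 and 0.093 over all genes. The summed normalized counts of the 18 sterol enzymes ran from 2124.7 to 2329.9 on day 0, from 3873.8 to 4718.6 in TGFβ-iTreg and from 4705.4 to 6179.7 in mTO-iTreg. The day 0 libraries lay below all 6 iTreg libraries, and the TGFβ-iTreg and mTO-iTreg ranges overlapped at 1 library each. Both comparisons use the same day 0 libraries. Without day 0 replicate 3 the counts were 10 and 14, and without TGFβ-iTreg replicate 3 the first was 9. With quantile scaling 14 sterol members were called higher and 1 lower in mTO-iTreg against day 0.

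**Figure D1:**
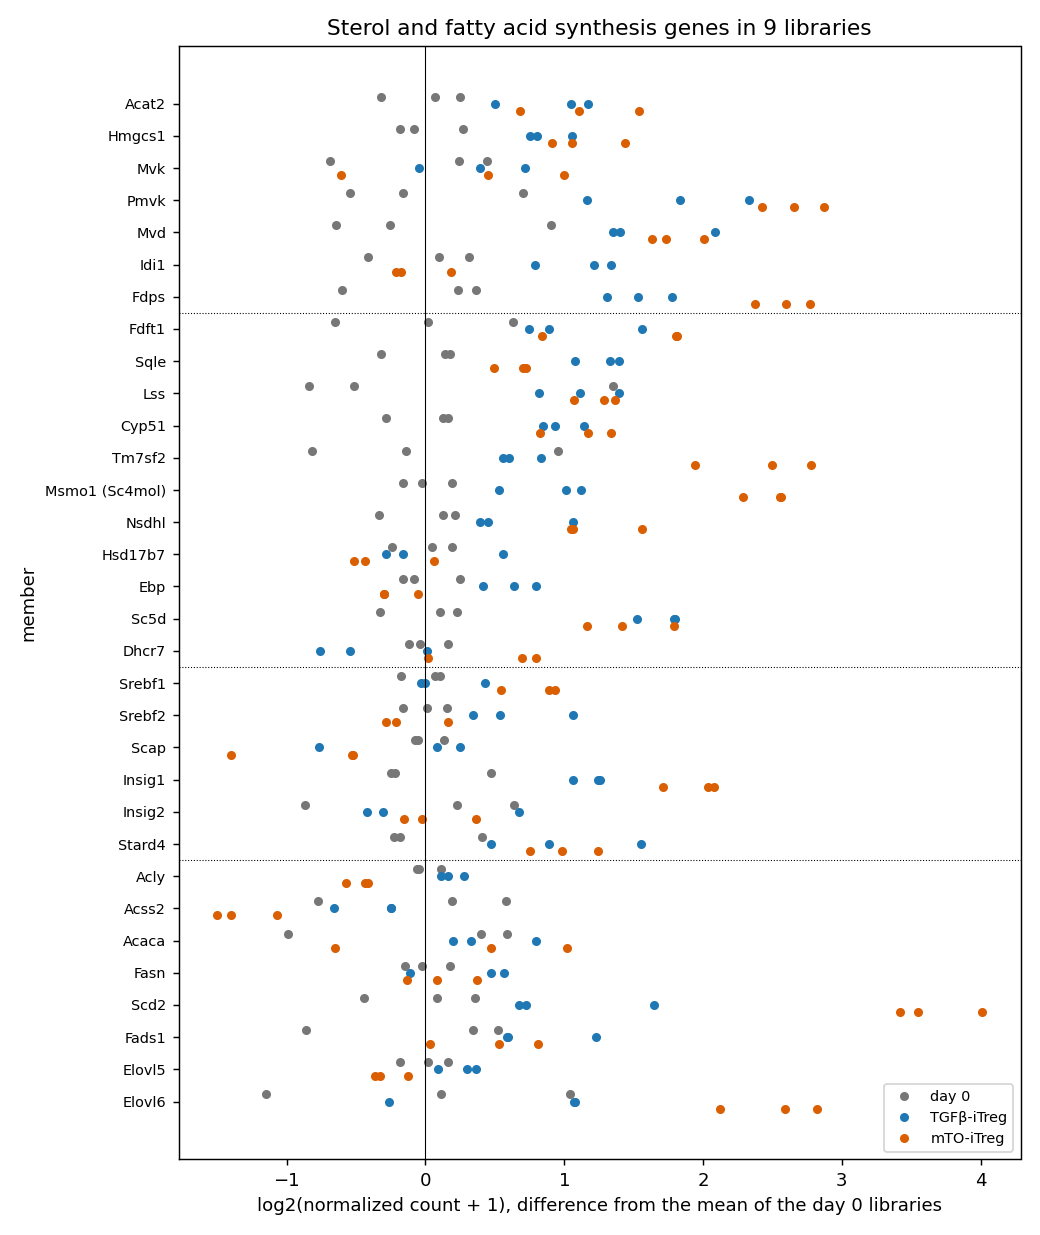
Each point is 1 library of day 0, TGFβ-iTreg or mTO-iTreg (colours), placed on the horizontal axis by the log2 of a tested member's normalized count plus 1, minus the mean of the day 0 libraries, with members ordered by role and dotted lines between the 4 role groups. Most sterol enzymes have their iTreg points right of 0, and the Scd2 points of mTO-iTreg lie farthest right.

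Among the mevalonate enzymes, 6 of 7 rose in TGFβ-iTreg and 5 of 7 in mTO-iTreg. Pmvk, phosphomevalonate kinase, had normalized counts of 17.5, 43.0 and 23.2 on day 0, 135, 59.7 and 95.3 for TGFβ-iTreg and 169, 144 and 197 for mTO-iTreg, in the order of replicates 1, 2 and 3. Every iTreg library was above every day 0 library, and the mTO-iTreg libraries were the highest. The mean was 3.47-fold higher in TGFβ-iTreg (log2 change 1.78 ± 0.39 SE, adjusted p = 0.0069) and 6.09-fold higher in mTO-iTreg (log2 change 2.65, adjusted p = 0.00019). Fdps, farnesyl diphosphate synthase, which makes the branch point for sterols and protein prenylation, had 154, 86.0 and 169 on day 0, 381, 326 and 450.1 for TGFβ-iTreg and 684, 798 and 901 for mTO-iTreg. No library of Fdps crossed into another group's range. Its mean rose 2.83-fold in TGFβ-iTreg (log2 change 1.54 ± 0.24 SE, adjusted p = 0.0007) and 5.82-fold in mTO-iTreg (log2 change 2.58, adjusted p = 4.2e-06), and it was 2.06-fold higher in mTO-iTreg than in TGFβ-iTreg (adjusted p = 0.006). The Fdps gene lies at chr3:89093588-89101959 (GRCm38, GENCODE M21), and its 3′ end is shared with Gm43738 and with 5 processed pseudogenes that are not genes of the table, so how its reads were divided is uncertain.

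Mvd, mevalonate diphosphate decarboxylase, had 21.1, 48.4 and 15.8 on day 0, 66.4, 68.5 and 111 for TGFβ-iTreg and 86.6, 80.6 and 105 for mTO-iTreg, and the day 0 libraries were the 3 lowest. It rose 2.88-fold (adjusted p = 0.018) and 3.19-fold (adjusted p = 0.0054). Hmgcs1, the cytosolic HMG-CoA synthase whose promoter is printed above, had 256, 328 and 238 on day 0, 457, 474 and 566 for TGFβ-iTreg and 565, 511 and 738 for mTO-iTreg. Its log2 change was 0.87 ± 0.19 SE in TGFβ-iTreg (adjusted p = 0.0057) and 1.13 in mTO-iTreg (adjusted p = 0.0004), and day 0 did not overlap either iTreg group. Acat2, the cytosolic acetoacetyl-CoA thiolase, had means of 138 ± 26.7 on day 0, 261 ± 60.3 for TGFβ-iTreg and 303 ± 89.6 for mTO-iTreg (SD, n = 3), with adjusted p = 0.029 and 0.0052 against day 0. Mvk, mevalonate kinase, was the member of this group that was not called in any comparison, with means of 59.7 ± 22.2, 74.3 ± 19.3 and 76.2 ± 38.7 (adjusted p = 0.64 and 0.66 against day 0).

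Idi1, isopentenyl diphosphate isomerase, was the mevalonate gene that was lower in mTO-iTreg than in TGFβ-iTreg. It had 147, 172 and 103 on day 0, 349, 239 and 321 for TGFβ-iTreg and 122, 157 and 119 for mTO-iTreg. The 3 TGFβ-iTreg libraries were the 3 highest, and the mTO-iTreg libraries lay inside the day 0 range. Idi1 rose 2.15-fold in TGFβ-iTreg (log2 change 1.11 ± 0.25 SE, adjusted p = 0.0074) and was 2.28-fold lower in mTO-iTreg than in TGFβ-iTreg (log2 change -1.18 ± 0.25 SE, adjusted p = 0.0035), while mTO-iTreg against day 0 gave -0.07 (95% interval -0.60 to 0.47, adjusted p = 0.86). Of the mevalonate calls, that of Mvd in TGFβ-iTreg was lost without day 0 replicate 1 (adjusted p = 0.057) or 3 (0.06) or TGFβ-iTreg replicate 3 (0.087), and with only the 6 libraries of that comparison (0.052). The TGFβ-iTreg call of Acat2 was lost without day 0 replicate 1 (0.1) or 2 (0.054) or TGFβ-iTreg replicate 1 (0.11) or 3 (0.093), without the shallowest libraries (0.15), without a variance trend (0.087) and with voom weights on the recovered reads (0.11). Acat2 shares sequence with Acat3, of which the libraries hold next to no reads, and Tcp1 holds a match of the same length and identity (353 bases, 98.6%) in the opposite orientation. The 3′ end of Idi1 matches the processed pseudogenes Gm13502 (378 bases, 100%) and Gm35570 (378 bases, 97.6%). Neither is a gene of the table, so how the reads of Idi1 were divided is uncertain.

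From farnesyl diphosphate to cholesterol, 6 of 11 enzymes rose in TGFβ-iTreg and 7 of 11 in mTO-iTreg. Msmo1 (listed as Sc4mol), the methylsterol monooxygenase that starts removal of the methyl groups at carbon 4 of the sterol ring, had 204, 175 and 159 on day 0, 258, 361 and 389 for TGFβ-iTreg and 874, 1052 and 1055 for mTO-iTreg. The groups did not overlap, and the lowest mTO-iTreg library was above the highest TGFβ-iTreg library by more than the whole spread within either group. Its mean was 1.88-fold higher in TGFβ-iTreg (log2 change 0.89 ± 0.19 SE, adjusted p = 0.0053) and 5.54-fold higher in mTO-iTreg (log2 change 2.47, adjusted p = 8.1e-07). Between the iTreg groups it differed 2.96-fold (log2 change 1.58 ± 0.19 SE, adjusted p = 5e-05). The gene lies at chr8:64718139-64733792. Without this gene, which was matched through its older symbol, 12 of 23 sterol members rose in TGFβ-iTreg and 13 in mTO-iTreg.

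Sc5d, sterol C5-desaturase, had 107, 72.6 and 98.1 on day 0, 319.8, 265 and 319 for TGFβ-iTreg and 206, 246 and 318 for mTO-iTreg. Day 0 stood below both iTreg groups, which overlapped each other. It rose 3.26-fold in TGFβ-iTreg (log2 change 1.71 ± 0.23 SE, adjusted p = 0.00025) and 2.77-fold in mTO-iTreg (adjusted p = 0.00032), with a difference between the iTreg groups of -0.25 (95% interval -0.75 to 0.25). Sqle, squalene epoxidase, a rate-setting step of the late pathway, had 121, 167 and 171 on day 0, 381, 319 and 399.7 for TGFβ-iTreg and 213, 251 and 247 for mTO-iTreg. The 3 groups did not overlap, and mTO-iTreg lay between the other groups. Sqle was 2.40-fold higher in TGFβ-iTreg (log2 change 1.27 ± 0.20 SE, adjusted p = 0.00076) and 1.55-fold higher in mTO-iTreg (adjusted p = 0.024) than on day 0, and 1.55-fold lower in mTO-iTreg than in TGFβ-iTreg (log2 change -0.63 ± 0.20 SE, adjusted p = 0.034).

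Tm7sf2, a sterol C14-reductase, had 15.8, 34.9 and 9.49 on day 0, 32.0, 27.1 and 26.2 for TGFβ-iTreg and 70.2, 126 and 104 for mTO-iTreg. The mTO-iTreg libraries were the 3 highest, and TGFβ-iTreg lay inside the day 0 range. It rose 4.98-fold against day 0 (log2 change 2.41 ± 0.49 SE, adjusted p = 0.002), where it had 31 reads over the 3 libraries. Against TGFβ-iTreg it was 3.52-fold higher (adjusted p = 0.019). Exons of Tm7sf2 are shared with Vps51 on the same strand, and Vps51 was not called in any comparison. Nsdhl, the dehydrogenase that follows Msmo1, rose in mTO-iTreg (means 79.8 ± 15.5 on day 0 and 188 ± 40.1, SD, n = 3, adjusted p = 0.0042) and was not called in TGFβ-iTreg (mean 126 ± 34.7, adjusted p = 0.14). Cyp51, lanosterol demethylase, rose in both, with means of 253 ± 41.2, 495 ± 52.0 and 547 ± 96.2 (adjusted p = 0.0028 and 0.00047). The last bases of Cyp51 overlap Akap9 on the other strand, which was lower in TGFβ-iTreg (log2 change -2.45, adjusted p = 0.003).

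Ebp, the sterol isomerase whose promoter is printed above, had 265, 199 and 211 on day 0, 298, 349 and 388 for TGFβ-iTreg and 181, 181 and 215 for mTO-iTreg. TGFβ-iTreg was highest, with no overlap, and mTO-iTreg overlapped day 0. Ebp was 1.79-fold lower in mTO-iTreg than in TGFβ-iTreg (log2 change -0.83 ± 0.19 SE, adjusted p = 0.0063), and its rise in TGFβ-iTreg against day 0 was 0.62 (adjusted p = 0.042). Dhcr7, which makes cholesterol from 7-dehydrocholesterol, had 93.0, 113 and 98.1 on day 0, 68.9, 102 and 59.3 for TGFβ-iTreg and 102, 176 and 164 for mTO-iTreg. The nearest libraries of the iTreg groups, at 101.7 and 102.3, almost touched, and Dhcr7 was 1.93-fold higher in mTO-iTreg than in TGFβ-iTreg (log2 change 0.93 ± 0.30 SE, adjusted p = 0.036) without a call against day 0. Fdft1, squalene synthase, had 347, 142 and 227, 662, 376 and 415 and 402, 788 and 786, with adjusted p = 0.039 and 0.0034 against day 0. Its 3′ end lies over that of Ctsb, a lysosomal protease gene on the other strand, with 774 exonic bases in common, and Ctsb was itself higher in mTO-iTreg than on day 0 (log2 change 0.44, adjusted p = 0.013). Whether the counting used strand is not given in the sources used here. Lss, lanosterol synthase, and Hsd17b7, a sterol ketoreductase, were not called, with means of 25.7 ± 23.4, 44.8 ± 9.09 and 48.9 ± 5.15 for Lss and 54.5 ± 8.20, 57.5 ± 19.6 and 44.6 ± 10.4 for Hsd17b7.

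Several of these late-pathway calls turned on single libraries or on the settings. Fdft1 in TGFβ-iTreg lost its call without day 0 replicate 2 (adjusted p = 0.15) or 3 (0.076), without TGFβ-iTreg replicate 1 (0.16) or 3 (0.066) and under 5 other settings (0.054 to 0.38). Ebp in TGFβ-iTreg lost it without day 0 replicate 2 (0.12) or 3 (0.1), TGFβ-iTreg replicate 2 (0.11) or 3 (0.15). The same call was lost with only the 6 libraries of that comparison (0.05), with the replicate number as a block (0.058), without a variance trend (0.081) and without the shallowest libraries (0.11). Sqle in mTO-iTreg against day 0 lost it without day 0 replicate 1 (0.093) or mTO-iTreg replicate 2 or 3 (0.066 each), and against TGFβ-iTreg without TGFβ-iTreg replicate 1 (0.097) or 3 (0.12) or mTO-iTreg replicate 1 (0.11), 2 (0.054) or 3 (0.061). For Tm7sf2 between the iTreg groups the libraries were TGFβ-iTreg replicates 2 (0.052) and 3 (0.056) and mTO-iTreg replicates 2 (0.075) and 3 (0.062). For Dhcr7 they were TGFβ-iTreg replicates 1 (0.093) and 3 (0.13) and mTO-iTreg replicates 2 (0.12) and 3 (0.11). Dhcr7 also lost its call with TMM scaling (0.05), quantile scaling (0.071), no variance trend (0.052) and without the shallowest libraries (0.09). Sqle also lost its call against day 0 with 6 libraries (0.051) and voom (0.083). Against TGFβ-iTreg, Sqle lost it with equal totals without mitochondrial genes and Rn45s (0.055), no variance trend (0.063) and without the shallowest libraries (0.091).

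Of the 6 sterol regulators and carriers, 1 rose in TGFβ-iTreg and 2 rose in mTO-iTreg. Insig1, which retains SCAP in the endoplasmic reticulum and is itself a known SREBP target, had 61.4, 37.6 and 36.9 on day 0, 106, 106 and 92.9 for TGFβ-iTreg and 184, 146 and 189 for mTO-iTreg. The groups did not overlap. It rose 2.24-fold in TGFβ-iTreg (log2 change 1.19 ± 0.29 SE, adjusted p = 0.012) and 3.82-fold in mTO-iTreg (log2 change 1.94, adjusted p = 0.00019), and the difference between the iTreg groups was 0.76 ± 0.29 SE (adjusted p = 0.07). Insig2, its paralog, had 125, 167 and 58.0 on day 0, 86.1, 79.3 and 170.4 for TGFβ-iTreg and 137, 105 and 95.7 for mTO-iTreg. All 3 groups overlapped, and the log2 changes were -0.02 (95% interval -0.87 to 0.83) in TGFβ-iTreg and 0.06 (95% interval -0.79 to 0.91) in mTO-iTreg against day 0, with adjusted p = 0.98 and 0.92.

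The genes of the 2 SREBP factors differed between the iTreg groups in opposite directions. Srebf1 had 140.3, 116 and 137 on day 0, 128, 130.2 and 176 for TGFβ-iTreg and 249.6, 243 and 191 for mTO-iTreg. The mTO-iTreg libraries were the 3 highest, while TGFβ-iTreg overlapped day 0. Srebf1 rose 1.74-fold in mTO-iTreg against day 0 (log2 change 0.79 ± 0.23 SE, adjusted p = 0.016) and was 1.57-fold higher than in TGFβ-iTreg (log2 change 0.66 ± 0.23 SE, adjusted p = 0.046). Srebf2 had 191, 169 and 212 on day 0, 241, 276 and 398 for TGFβ-iTreg and 213, 164 and 156 for mTO-iTreg. TGFβ-iTreg was highest with no overlap, and mTO-iTreg overlapped day 0. Srebf2 was 1.72-fold lower in mTO-iTreg than in TGFβ-iTreg (log2 change -0.76 ± 0.23 SE, adjusted p = 0.026) and was not called against day 0 (adjusted p = 0.066 and 0.74). Scap was not called, with means of 106 ± 8.65 on day 0, 99.5 ± 33.7 for TGFβ-iTreg and 61.6 ± 19.4 for mTO-iTreg (SD, n = 3). Stard4, a cytosolic sterol carrier, had means of 26.6 ± 7.20, 54.8 ± 21.5 and 53.4 ± 9.25 and was not called either (adjusted p = 0.13 and 0.084 against day 0). A transcript level says nothing about how much of either SREBP protein was cut and moved to the nucleus.

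The difference in Srebf1 between the iTreg groups was lost in 14 of 22 alternatives, among them leaving out day 0 replicate 1 (adjusted p = 0.052) or 3 (0.055), TGFβ-iTreg replicate 1 or 2 (0.13 each), or mTO-iTreg replicate 1 (0.14) or 2 (0.12). Its rise against day 0 was lost without day 0 replicate 2 (0.05), mTO-iTreg replicate 1 (0.059) or 2 (0.05), and without the shallowest libraries (0.051). For Srebf2 the difference was lost without TGFβ-iTreg replicate 3 (0.13) or mTO-iTreg replicate 2 (0.07) or 3 (0.083), and without a variance trend (0.059). In TGFβ-iTreg against day 0 Srebf2 gained a call, as higher, with equal totals (0.017). The same held with equal totals without mitochondrial genes and Rn45s (0.017). Insig1 in TGFβ-iTreg lost its call without the shallowest libraries (0.079), and between the iTreg groups it gained one with 6 libraries (0.032), without day 0 replicate 1 (0.048) and with voom (0.022). The last bases of Srebf1 overlap Rai1 on the other strand.

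**Figure D2:**
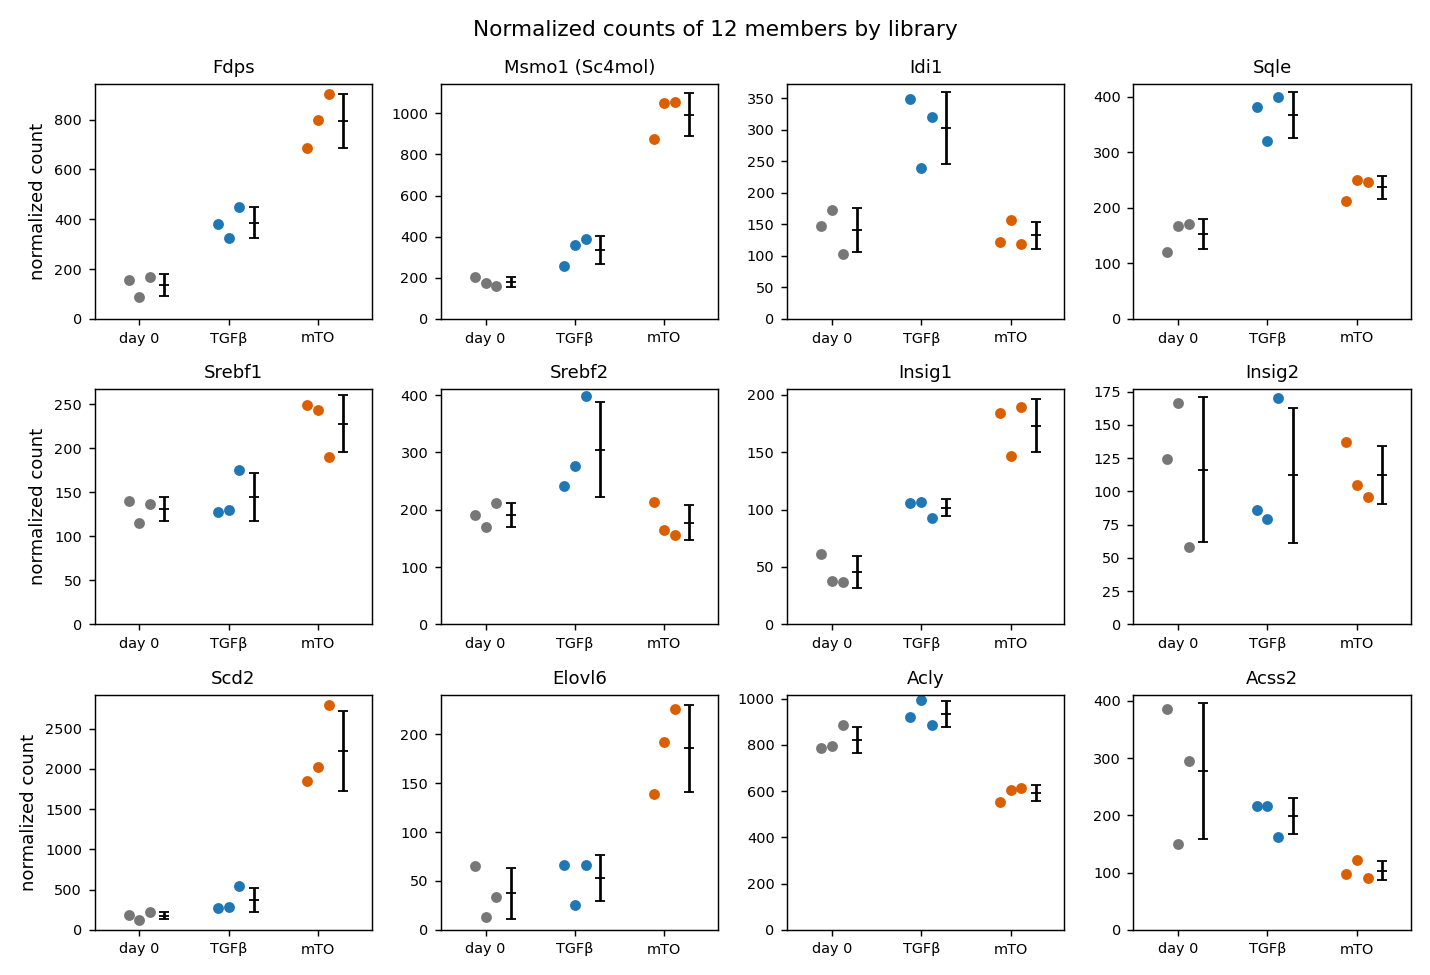
Normalized counts of 12 members in each library (points, replicates 1 to 3 from left to right) with the mean ± SD of each group (bars), on linear axes from 0. Fdps, Msmo1, Insig1 and Scd2 step up from day 0 to TGFβ-iTreg to mTO-iTreg, Idi1 and Sqle are highest in TGFβ-iTreg, and Acly and Acss2 are lowest in mTO-iTreg.

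The fatty acid branch did not move as one. Of its 8 tested members, 1 rose and 0 fell in TGFβ-iTreg, while 2 rose and 2 fell in mTO-iTreg. Over all genes 9.78% rose and 8.80% fell in the first comparison, and 19.4% rose and 14.5% fell in the second, so these few calls are near the share over all genes. Without day 0 replicate 3 the branch had 1 and 4 called members. The median log2 change was 0.38 and 0.19, beside -0.015 and 0.093 over all genes. Scd2, a stearoyl-CoA desaturase that makes monounsaturated fatty acids, had the largest change of all 32 tested members. Its normalized counts were 182, 126 and 220.5 on day 0, 275, 285 and 540.5 for TGFβ-iTreg and 1848, 2027 and 2789 for mTO-iTreg. The groups did not overlap, and the gap between the lowest mTO-iTreg and the highest TGFβ-iTreg library was wider than the range within either group. Scd2 was 12.6-fold higher in mTO-iTreg than on day 0 (log2 change 3.66 ± 0.27 SE, adjusted p = 6.3e-07) and 6.05-fold higher than in TGFβ-iTreg (log2 change 2.64 ± 0.27 SE, adjusted p = 1.5e-05). The rise in TGFβ-iTreg was 2.08-fold (log2 change 1.02 ± 0.27 SE, adjusted p = 0.018), and was lost without day 0 replicate 2 (adjusted p = 0.075) or TGFβ-iTreg replicate 3 (0.077), without the shallowest libraries (0.056), without a variance trend (0.093) and with voom (0.089). The gene lies at chr19:44293674-44306864.

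Elovl6, the elongase that takes palmitate to stearate, had 64.9, 13.4 and 33.8 on day 0, 66.4, 25.8 and 66.7 for TGFβ-iTreg and 138, 192 and 226 for mTO-iTreg. The mTO-iTreg libraries were the 3 highest, and the other groups overlapped. It rose 4.96-fold against day 0 (log2 change 2.51 ± 0.53 SE, adjusted p = 0.0023) and 3.50-fold against TGFβ-iTreg (log2 change 1.88 ± 0.53 SE, adjusted p = 0.017). Elovl5, which elongates polyunsaturated fatty acids, went the other way, with 877, 968 and 762 on day 0, 1114, 919 and 1062 for TGFβ-iTreg and 689.5, 793 and 673 for mTO-iTreg. The TGFβ-iTreg libraries were all above the mTO-iTreg libraries, and each overlapped day 0. Elovl5 was 1.44-fold lower in mTO-iTreg than in TGFβ-iTreg (log2 change -0.52 ± 0.14 SE, adjusted p = 0.015). The 3′ end of Elovl6 matches the processed pseudogene Gm11295 (501 bases, 96.6%), which is not a gene of the table, so how its reads were divided is uncertain.

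The sources of cytosolic acetyl-CoA were lower in mTO-iTreg. Acly, ATP citrate lyase, had 786, 793 and 885 on day 0, 919.9, 995 and 885 for TGFβ-iTreg and 552, 605 and 615 for mTO-iTreg. The mTO-iTreg libraries were the 3 lowest. Acly was 1.39-fold lower in mTO-iTreg than on day 0 (log2 change -0.47 ± 0.13 SE, adjusted p = 0.011) and 1.58-fold lower than in TGFβ-iTreg (log2 change -0.66 ± 0.13 SE, adjusted p = 0.0021). Acss2, the cytosolic acetyl-CoA synthetase that uses acetate, had 386, 151 and 294 on day 0, 216, 217 and 163 for TGFβ-iTreg and 96.8, 122 and 90.3 for mTO-iTreg. Again the mTO-iTreg libraries were the 3 lowest, while day 0 spread around TGFβ-iTreg. Acss2 was 2.69-fold lower than on day 0 (log2 change -1.33 ± 0.31 SE, adjusted p = 0.0044) and 1.93-fold lower than in TGFβ-iTreg (adjusted p = 0.037). The fall of Acly against day 0 depended on scaling: with equal library totals adjusted p was 0.17, and 0.34 with equal totals after removal of mitochondrial genes and the ribosomal RNA gene Rn45s.

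Fasn, Acaca and Fads1 were not called in any comparison. Fasn, fatty acid synthase, had means of 195 ± 22.4 on day 0, 246 ± 57.9 for TGFβ-iTreg and 211 ± 37.2 for mTO-iTreg (SD, n = 3), with a log2 change in mTO-iTreg against day 0 of 0.11 (95% interval -0.39 to 0.60, adjusted p = 0.76). Acaca, acetyl-CoA carboxylase, had 30.8 ± 15.3, 38.6 ± 8.97 and 37.7 ± 19.9, at which its interval in mTO-iTreg was -0.92 to 1.48. Its 3′ end matches the processed pseudogene Gm5182 (500 bases, 100%), which is not a gene of the table either. Fads1, a desaturase of polyunsaturated fatty acids, had 66.7 ± 29.4, 110.5 ± 30.0 and 86.8 ± 22.9. The summed normalized counts of the whole fatty acid branch were 2344.0 to 2600.1 on day 0, 2897.4 to 3132.7 in TGFβ-iTreg and 3634.0 to 4778.1 in mTO-iTreg, which was highest. The order turned when Scd2, the most changed member, was taken out. The sums without it were 2217.7 to 2417.6 on day 0, 2592.3 to 2621.9 in TGFβ-iTreg and 1786.3 to 2036.6 in mTO-iTreg. On this scaling the 3 ranges did not overlap and mTO-iTreg was lowest. Normalized library totals were higher on day 0 (5621107 to 6096317) than in mTO-iTreg (4944034 to 5150264), so the order of these groups depends on scaling. Acly and Elovl5 made up most of the mTO-iTreg sum (means 591 and 719 of 1937.2), so it is not a fall of the whole branch. Between the iTreg groups the call of Acss2 was lost without TGFβ-iTreg replicate 1 (adjusted p = 0.11) or 2 (0.1) or mTO-iTreg replicate 1 (0.092) or 3 (0.11). That of Elovl5 was lost without TGFβ-iTreg replicate 1 (0.064) or mTO-iTreg replicate 3 (0.052), and that of Elovl6 without TGFβ-iTreg replicate 2 (0.075) or mTO-iTreg replicate 2 (0.054) or 3 (0.071).

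**Figure D3:**
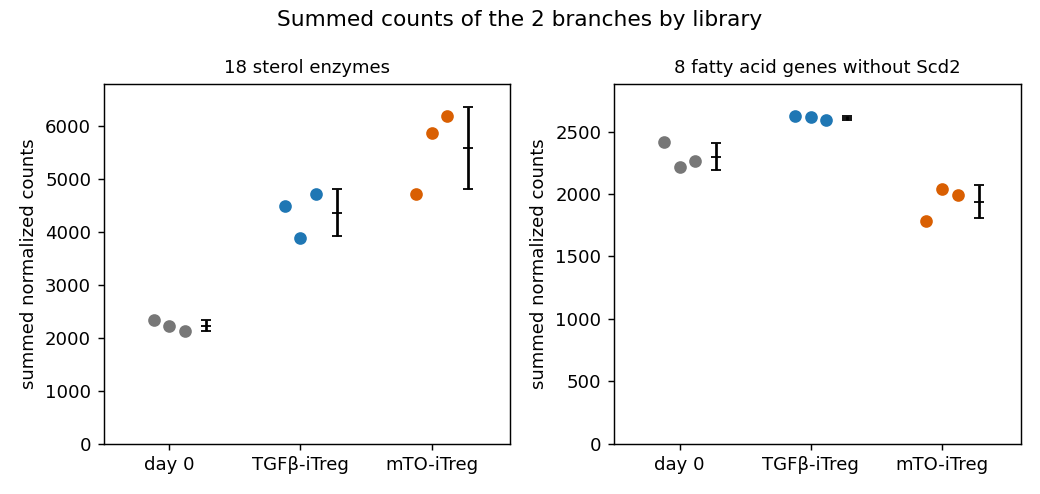
Summed normalized counts of the 18 sterol enzymes (left) and of the 8 fatty acid genes other than Scd2 (right) in each library (points), with mean ± SD per group (bars) on linear axes from 0. The sterol sum is lowest in the 3 day 0 libraries, 2124.7 to 2329.9. On the deposited scaling the fatty acid sum without Scd2 is lowest in the 3 mTO-iTreg libraries, 1786.3 to 2036.6. The sum with Scd2 (not drawn) is highest there, 3634.0 to 4778.1.

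Set against each other, the iTreg groups differed in both directions among the members, as they did over all genes. Of the 24 sterol members, 5 were higher and 4 lower in mTO-iTreg than in TGFβ-iTreg, and of the 8 tested fatty acid members 2 were higher and 3 lower. Over all genes 26.6% were called in the same comparison, 14.9% higher and 11.8% lower. The mTO-iTreg libraries of 7 sterol members lay wholly above and those of 4 wholly below TGFβ-iTreg, against 25.9% and 18.7% of all genes. The sterol members' median difference was 0.16, beside 0.13 over all genes, and that of the fatty acid members was -0.28. For the sterol members this median and the shares without overlap are near those over all genes. Within the mevalonate steps Fdps was higher and Idi1 lower, and in the later steps Tm7sf2, Msmo1 and Dhcr7 were higher while Sqle and Ebp were lower. Among the regulators Srebf1 was higher and Srebf2 lower, and in the fatty acid branch Scd2 and Elovl6 were higher while Acly, Acss2 and Elovl5 were lower. The sterol count of 9 fell to 4 without mTO-iTreg replicate 2 and to 5 without TGFβ-iTreg replicate 3 or mTO-iTreg replicate 3. The fatty acid count of 5 fell to 2 without mTO-iTreg replicate 3 and to 3 without TGFβ-iTreg replicate 1 or 2. The colon epithelial marker sum was higher in TGFβ-iTreg than in mTO-iTreg (137.7 to 138.8 against 34.1 to 114.3), and its part in these differences was not tested.

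**Figure D4:**
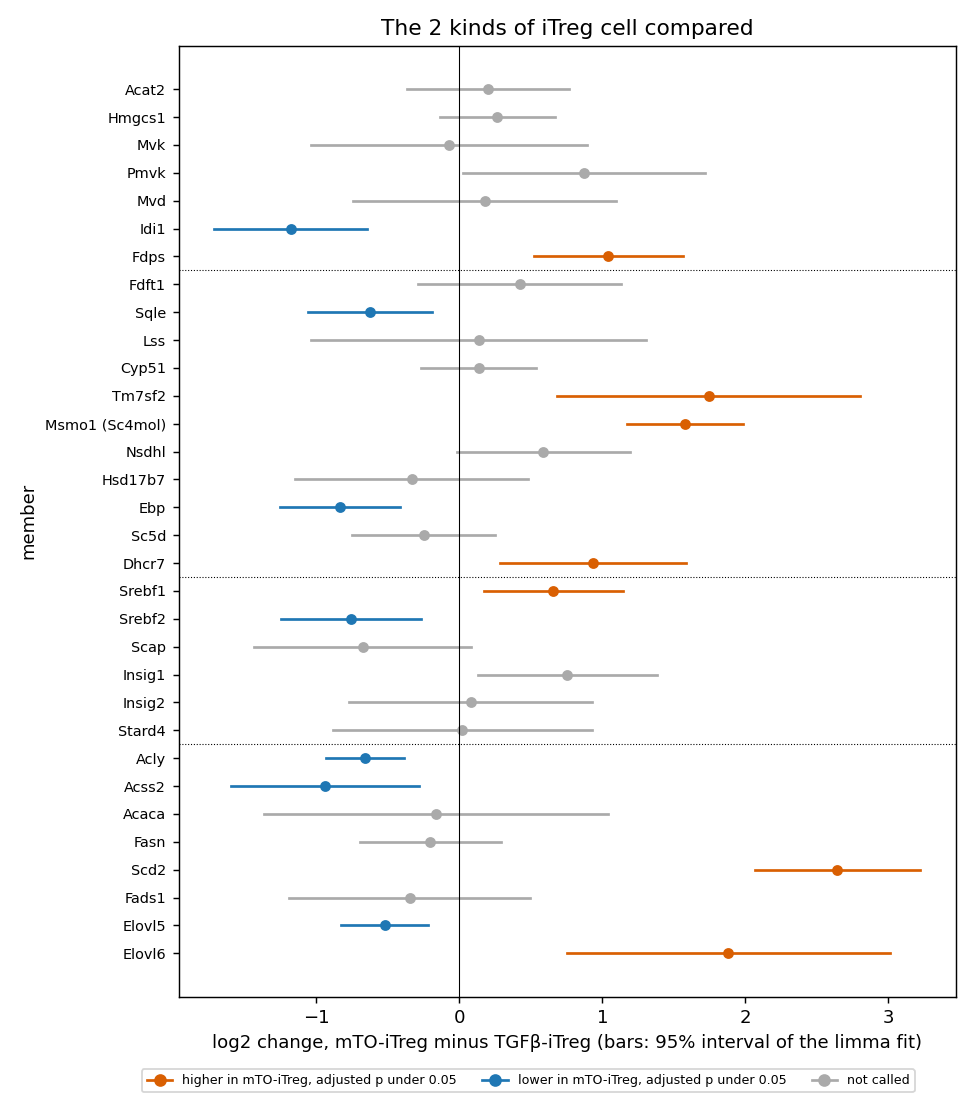
Log2 difference of each tested member between mTO-iTreg and TGFβ-iTreg (points) with the 95% interval of the limma fit (bars), ordered by role, with dotted lines between the mevalonate, late sterol, sensing and fatty acid groups. Points right of 0 are higher in mTO-iTreg, with Scd2 at 2.64 farthest right and Idi1 at -1.18 farthest left.

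Other genes of the same pathways were taken from lists of their own, and each called gene named was put through the same alternatives. Of 15 tested genes for further sterol synthesis and SREBP processing, 1 rose and 1 fell in TGFβ-iTreg, and 4 rose and 1 fell in mTO-iTreg, which is no more than the 18.6% and 33.9% called over all genes. Dhdds, a dolichol synthesis gene, rose in mTO-iTreg (log2 change 1.02, adjusted p = 0.012), and Tmem97, a sterol-responsive membrane protein, rose in both iTreg groups (1.30, adjusted p = 0.046, and 2.01, adjusted p = 0.0024). Lbr, which has sterol reductase activity beside its role in the nuclear envelope, fell in both (-0.40, adjusted p = 0.048, and -0.59, adjusted p = 0.0032). The TGFβ-iTreg calls of Tmem97 and Lbr were close to the threshold. That of Tmem97 was lost without any 1 library (adjusted p = 0.051 to 0.19), and that of Lbr without any 1 day 0 or TGFβ-iTreg library (0.064 to 0.13), without mTO-iTreg replicate 1 (0.055) and with equal totals (0.45).

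Of 15 tested genes for sterol export, LXR signalling and storage, 1 rose and 2 fell in TGFβ-iTreg, and 0 rose and 3 fell in mTO-iTreg, again near or under the 18.6% and 33.9% of all genes. Soat1, which esterifies cholesterol for storage, had means of 125 ± 54.0 on day 0, 391 ± 74.4 for TGFβ-iTreg and 169 ± 42.4 for mTO-iTreg. It rose in TGFβ-iTreg (log2 change 1.71 ± 0.31 SE, adjusted p = 0.0019) and was lower in mTO-iTreg than in TGFβ-iTreg (log2 change -1.22, adjusted p = 0.01). Lipa, the lysosomal acid lipase, fell in both iTreg groups (-1.37, adjusted p = 0.0011, and -1.38, adjusted p = 0.00043), as did Mylip, a ubiquitin ligase and LXR target (-1.56, adjusted p = 0.04, and -1.54, adjusted p = 0.025). Abcg1, a cholesterol exporter and LXR target, fell in mTO-iTreg against day 0 (-1.32, adjusted p = 0.0014) and was lower than in TGFβ-iTreg (-1.07, adjusted p = 0.008). Mylip lost its call in TGFβ-iTreg without day 0 replicate 1 (0.14) or 3 (0.095), TGFβ-iTreg replicate 1 (0.15) or 2 (0.086) or mTO-iTreg replicate 3 (0.051), and in mTO-iTreg without day 0 replicate 1 (0.1) or 3 (0.068) or mTO-iTreg replicate 2 (0.11). With equal totals its adjusted p was 0.074 and 0.051.

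Of 17 tested genes for other steps of fatty acid synthesis and activation, 3 rose and 1 fell in TGFβ-iTreg, and 5 rose and 0 fell in mTO-iTreg, beside the same shares of all genes (18.6% and 33.9%). Scd1, a paralog of Scd2, had 7.02, 8.06 and 27.4 on day 0, 64.0, 68.5 and 146 for TGFβ-iTreg and 121, 187 and 298 for mTO-iTreg. All iTreg libraries were above day 0, by a log2 change of 2.78 ± 0.53 SE in TGFβ-iTreg (adjusted p = 0.0027) and 3.90 in mTO-iTreg (adjusted p = 9e-05). Slc25a1, the mitochondrial citrate carrier that supplies Acly, had means of 117 ± 51.4 on day 0, 333 ± 35.2 for TGFβ-iTreg and 705 ± 176 for mTO-iTreg. It rose in both groups (adjusted p = 0.0029 and 2.5e-05) and was higher in mTO-iTreg than in TGFβ-iTreg (log2 change 1.05, adjusted p = 0.023), whereas Acly was lower there. Acsl3, an acyl-CoA synthetase, rose in both (2.08, adjusted p = 0.00093, and 1.81, adjusted p = 0.001). Tecr and Ptplad1 (now Hacd3), enzymes of very long chain elongation, rose in mTO-iTreg against day 0 (0.92, adjusted p = 0.00037, and 0.63, adjusted p = 0.03) and were higher than in TGFβ-iTreg (1.13, adjusted p = 0.00012, and 1.03, adjusted p = 0.0025). Elovl7, another elongase, fell in TGFβ-iTreg (means 37.5 ± 15.2 on day 0 and 5.45 ± 4.77, log2 change -3.05, adjusted p = 0.033), a call lost without day 0 replicate 1 (0.11) or 2 (0.079) or TGFβ-iTreg replicate 1 (0.11). The difference of Slc25a1 between the iTreg groups was lost without TGFβ-iTreg replicate 1 (0.079) or mTO-iTreg replicate 2 (0.093) or 3 (0.059), and the rise of Ptplad1 against day 0 without day 0 replicate 1 (0.11) or mTO-iTreg replicate 1 (0.12) or 2 (0.061). With voom Scd1 in TGFβ-iTreg had an adjusted p of 0.083.

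Of 19 tested genes for fatty acid uptake and oxidation, the opposing pathway, 3 rose and 0 fell in TGFβ-iTreg, and 11 rose and 3 fell in mTO-iTreg, beside 18.6% and 33.9% of all genes called. The median log2 change was 0.24 in TGFβ-iTreg and 0.82 in mTO-iTreg, beside -0.015 and 0.093 over all genes. Acadl, long-chain acyl-CoA dehydrogenase, had means of 205 ± 23.9 on day 0, 235 ± 46.8 for TGFβ-iTreg and 773 ± 75.1 for mTO-iTreg, a log2 difference between the iTreg groups of 1.73 ± 0.19 SE (adjusted p = 2.2e-05). Eci2, an enoyl-CoA isomerase, rose by 2.18 in mTO-iTreg (adjusted p = 2e-05) and Decr1, which handles unsaturated chains, by 1.98 (adjusted p = 0.002). Fabp5, a fatty acid binding protein, rose in both iTreg groups (1.92, adjusted p = 0.016, and 2.34, adjusted p = 0.0025). Etfb and Etfdh, of the electron transfer from this pathway to the respiratory chain, rose in TGFβ-iTreg (0.82, adjusted p = 0.042, and 0.97, adjusted p = 0.044) and in mTO-iTreg (0.82, adjusted p = 0.027, and 1.04, adjusted p = 0.019). Etfa, the partner subunit of Etfb, fell in mTO-iTreg (-1.32, adjusted p = 3.3e-05) and was lower than in TGFβ-iTreg (-1.60, adjusted p = 1.2e-05). Ppard, a nuclear receptor for fatty acids, was higher in mTO-iTreg than in TGFβ-iTreg (1.64, adjusted p = 0.038), a call lost without TGFβ-iTreg replicate 1 (0.12) or 3 (0.089) or any 1 mTO-iTreg library (0.062 to 0.13). In mTO-iTreg the call of Etfb was lost without day 0 replicate 1 (0.085) or mTO-iTreg replicate 1 (0.1) or 3 (0.084), and that of Etfdh without day 0 replicate 3 (0.063) or mTO-iTreg replicate 1 (0.073) or 3 (0.069). The TGFβ-iTreg calls were lost for Fabp5 without TGFβ-iTreg replicate 2 (0.07), for Etfb without any 1 day 0 library (0.054 to 0.12), TGFβ-iTreg replicate 1 (0.11) or 2 (0.14) or mTO-iTreg replicate 3 (0.051), and for Etfdh without day 0 replicate 1 (0.08) or 3 (0.12), any 1 TGFβ-iTreg library (0.062 to 0.15) or mTO-iTreg replicate 1 (0.056) or 3 (0.054).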

How the data were processed

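Bulk RNA of 9 libraries was sequenced with a modified CEL-Seq protocol, which counts transcripts from their 3′ end, per the labels' protocols. The authors deposited 1 table of normalized counts for 14912 genes, with BWA, DESeq2 and the build mm10 named in the submitters' processing notes; the use of strand is not given in the sources used here. Every value was a whole multiple of 1 step per library (100% whole within 0.1), so reads were recovered, 2078223 to 9944952 per library. These set the precision of low genes.

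Genes with at least 5 normalized counts in at least 3 libraries (10983) were tested on log2(value + 1) with limma 3.58.1 (lmFit, eBayes with trend, R 4.3.3) over all 9 libraries, with Benjamini-Hochberg adjustment over all 10983; the code was tested on simulated data. Fold changes are ratios of group means and log2 changes are differences of mean logs, so they can differ either way for low genes. The added 1 lessens log2 changes at low counts. SD is over n = 3, and intervals are 95%, not adjusted. "Called" means adjusted p under 0.05.

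The members and lists were chosen with earlier results of these data known. Values are given for the 3 called members with the largest change per list and comparison, for members called between the iTreg groups, and for Srebf1, Srebf2, Insig1 and Insig2; other members and list genes are named more briefly, some after their values were seen. Some genes of the further lists are not reported here. Same-numbered libraries did not deviate together (correlations from -0.05 to 0.06), so numbers were not used as pairs. With 3 libraries per group such correlations cannot exclude a pairing. There were 0 unused columns of sample values. Gene positions come from GENCODE M21 and promoters from RefSeq (GRCm38.p6).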

Additional observations from a re-analysis of the deposited data

How the results depend on the processing

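Of 46 member changes called in the 3 comparisons, 29 kept their call in all 22 alternatives, 17 lost it in at least 1 and 0 reversed. Leaving out single libraries gave 9 to 13 called sterol members in TGFβ-iTreg against day 0, 12 to 14 in mTO-iTreg against day 0 and 4 to 9 between the iTreg groups; for the fatty acid members the ranges were 0 to 1, 4 to 4 and 2 to 5. In TGFβ-iTreg against day 0 the fatty acid count of 1 became 3 with equal library totals, 3 with equal totals without mitochondrial genes and Rn45s, and 0 without a variance trend, without the shallowest libraries and with voom. Between the iTreg groups, no variance trend gave 5 sterol members in place of 9 and 2 fatty acid members in place of 5. Causes were not tested. Over all genes, equal totals shifted the median log2 change to 0.23 in TGFβ-iTreg and 0.313 in mTO-iTreg, and without mitochondrial genes and Rn45s to 0.225 and 0.392; equal totals changed the split of all calls in TGFβ-iTreg from 1074 higher and 966 lower to 1793 and 582, and in mTO-iTreg from 2126 and 1597 to 2738 and 1141.

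With the replicate number as a block the sterol counts were 12, 14 and 8 and the fatty acid counts 1, 4 and 5. Ebp in TGFβ-iTreg (adjusted p = 0.058) and Srebf1 between the iTreg groups (0.066) were the members that lost their calls under the block. Whether the numbers mark a pairing is not known here.

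Values that turned sign all belonged to changes that were not called. Srebf1 in TGFβ-iTreg ran from -0.017 to 0.21 as single libraries were left out. Srebf2 in mTO-iTreg against day 0 was 0.11 with equal totals and 0.19 without mitochondrial genes and Rn45s. Insig2 in TGFβ-iTreg was 0.23 with equal totals, 0.22 without mitochondrial genes and Rn45s, 0.0063 with quantile scaling, 0.45 without the shallowest libraries, 0.33 with voom, and from -0.45 to 0.30 without single libraries. In mTO-iTreg against day 0 Insig2 was -0.049 with quantile scaling and from -0.37 to 0.38 without single libraries. Between the iTreg groups it was -0.055 with quantile scaling, -0.065 without the shallowest libraries, -0.13 with voom, and from -0.12 to 0.42 without single libraries.

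The planned count tests on recovered reads were not run and were replaced by limma-voom with TMM scaling, chosen after seeing the data. Low members are limited by depth, since 1 read was worth up to 2.69 normalized counts. Over the 3 day 0 libraries Tm7sf2 had 31 reads, Mvd 45, Pmvk 48 and Elovl6 74, and the list gene Scd1 had 33. The size of their fold changes against day 0 rests on these few reads.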
